A study of Mus musculus with 9 samples.

Results

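The cytosolic ribosomal protein genes of mouse prostate cancer cells were taken as the annotated probe sets, groups of short probes on an Affymetrix Mouse Gene 2.0 ST array, with a single symbol of the form Rpl or Rps plus a number and at most one letter, together with Rplp0, Rplp1 and Rplp2. This gave 102 of 41345 probe sets, for 63 genes. Of these genes, 61 lay above a filter that left out the dimmest 30% of genes, and Rpl10l and Rpl32l lay below it. Ribosomal proteins whose only probe sets carry several symbols are not analysed here. The rule also takes paralogs whose symbols end in l, such as Rpl3l.

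Total RNA of cultured cells was hybridised to 9 arrays. The parental MYCCaP line, derived from a prostate tumour of a mouse with a MYC transgene under an androgen-responsive probasin promoter, was grown with dihydrotestosterone (DHT), and its 3 arrays are technical replicates that were averaged to 1 sample. The other arrays hold 3 MYCCaP lines from castrated mice that received vehicle and 3 from castrated mice that received AZD1208, an inhibitor of the PIM kinases, all cultured without DHT. All groups carry the same transgene. No label says whether each recurrent line came from its own mouse, so p-values measure only the spread between these lines.

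Ribosomal proteins and ribosomal RNA together form the small subunit, which decodes the message, and the large subunit, which joins amino acids. Their messages are among the most abundant of a growing cell, are held in balance with each other, and begin with a terminal oligopyrimidine (TOP) stretch through which mTORC1 and the RNA-binding protein LARP1 set their translation. MYC drives ribosome production in cancer cells, and PIM kinases promote protein synthesis through shared targets with AKT and mTORC1.

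Some annotated starts of members show this feature, and the windows below are given to show how the TOP stretch looks where it is present. RefSeq windows of GRCm38.p6, 250 bases before to 50 bases after a start, were found for 48 of the 63 members. A C at the start followed by at least 4 bases each C or T was found for 11 of 48 members (22.9%), against 3.01% of 27025 genes in the table and 0 of 69 genes for mitochondrial ribosomal proteins. The search read the given strand only and depends on where the start was annotated. The capitals mark the unbroken run of C and T from the start, in 15 bases before and 15 bases from the start on.
Rps6, chr4:86857353-86857382, minus strand: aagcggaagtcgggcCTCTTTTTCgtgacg
Rps18, chr17:33955651-33955680, minus strand: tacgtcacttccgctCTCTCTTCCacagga
Rps27, chr3:90213634-90213663, minus strand: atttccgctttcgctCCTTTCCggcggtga
Rpl15, chr14:18270972-18271001, minus strand: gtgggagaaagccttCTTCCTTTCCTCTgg
Rpl28, chr7:4792950-4792979, plus strand: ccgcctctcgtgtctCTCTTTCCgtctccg
Rpl35, chr2:39005117-39005146, minus strand: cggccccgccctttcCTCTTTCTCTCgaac
Rpl38, chr11:114668565-114668594, plus strand: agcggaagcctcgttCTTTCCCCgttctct
Rplp2, chr7:141447636-141447665, plus strand: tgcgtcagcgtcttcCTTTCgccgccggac
Rpl32l, chr10:20208424-20208453, plus strand: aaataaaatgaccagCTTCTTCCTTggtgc

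The motif CCGGAAG, the core read by ETS-family factors such as GABPA, was present on either strand in the windows of 21 of 48 members (43.8%), against 9.93% of all genes and 26 of 69 genes for mitochondrial ribosomal proteins (37.7%). The word CTTTC lay within 10 bases of the start in 9 members (18.8%, against 2.91%). The word AAGATGG, part of the site of YY1, was found on either strand in 6 members (12.5%, against 7.28%), and TATAAA between 20 and 40 bases before the start in 0 (against 2.41%). The 100 bases before the start of 3 members with CCGGAAG, in capitals, show where it sits. Rps6 and Rpl41 had the brightest probe sets of the members, and Rpl15 has the longest TOP stretch.
Rps6, chr4:86857368-86857467, minus strand: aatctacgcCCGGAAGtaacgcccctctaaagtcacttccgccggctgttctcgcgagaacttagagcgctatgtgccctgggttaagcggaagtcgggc
Rpl41, chr10:128549169-128549268, minus strand: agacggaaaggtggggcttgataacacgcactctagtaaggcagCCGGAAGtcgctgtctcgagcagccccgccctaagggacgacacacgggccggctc
Rpl15, chr14:18270987-18271086, minus strand: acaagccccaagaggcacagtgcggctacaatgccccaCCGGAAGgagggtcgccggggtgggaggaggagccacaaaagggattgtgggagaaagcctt

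Values are log2 intensities as the authors deposited them, and a difference of 1 is a doubling. The array medians lay between 6.22 and 6.36. AZD1208 3 had the narrowest interquartile range, 2.87 against 2.98 to 3.12, and the lowest array quality weight (0.342). The weights of AZD1208 2 (0.579) and vehicle 1 (0.627) came next, against 1.36 to 2.87 for the other recurrent lines. Of the epithelial markers, Krt8 was at 8.24 to 10.44 and Cldn3 at 11.65 to 12.43 in the recurrent lines (parental means 9.19 and 12.43), while Epcam lay at 4.51 to 5.08 over the 9 arrays, below the filter, and Cdh1 at 6.45 to 7.13. Krt19 was the epithelial marker furthest from its parental mean, at 6.59 to 6.96 in the 6 lines against 8.29 (difference -1.52, SE 0.23, limma adjusted p = 0.682).

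The ribosomal protein genes had lower values together in 1 vehicle line and 1 AZD1208 line, and no member differed past the threshold between the groups. In vehicle 1 their median lay 0.266 below the parental line, with 54 of 61 members lower, and in AZD1208 2 it lay 0.369 below, with 53 of 61 lower. The medians of the other lines were 0.103 in vehicle 3, 0.0367 in vehicle 2, -0.0018 in AZD1208 3 and -0.00805 in AZD1208 1. The median of all 15526 genes tested lay between -0.0441 and 0.042 in the 6 lines. For the 1121 genes tested at a mean level of 11 or more it was -0.107 in vehicle 1 and -0.116 in AZD1208 2. The 31 members at that level had medians of -0.304 and -0.309 there. One line of each group was thus low, and the medians of the other 4 lay near the parental value. The technical arrays of the parental line had member medians of -0.0441, -0.0159 and 0.0713 around their mean.

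**Figure D1:**
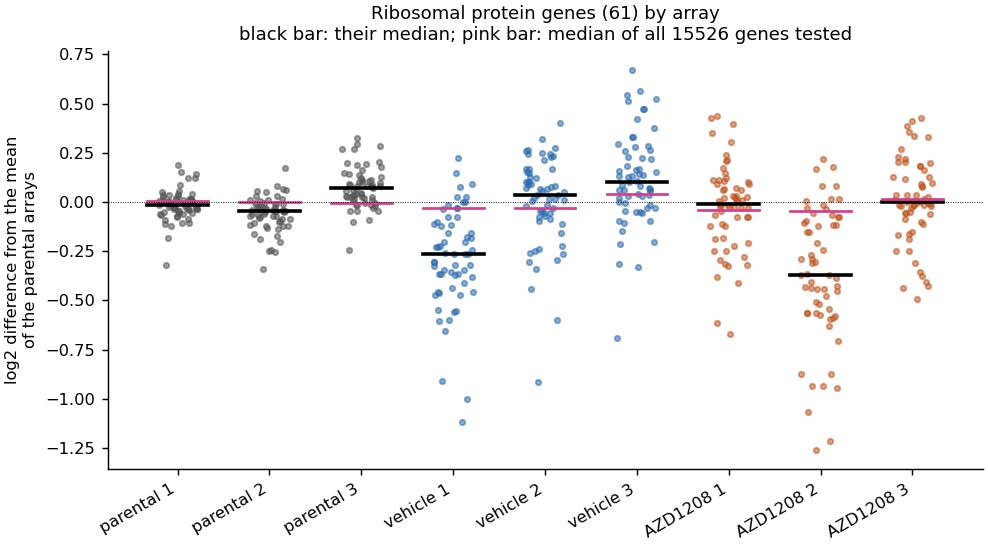
Log2 difference of each of the 61 ribosomal protein genes from the mean of the parental arrays, for each of the 9 arrays (points); black bars are the medians of these genes and pink bars the medians of all 15526 genes tested. The black bars of vehicle 1 (-0.266) and AZD1208 2 (-0.369) lie below those of every other array, while the pink bars stay close to 0.

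Both low lines lay below all 4 other lines for 37 of 61 members (60.7%), against 11.2% of all genes tested and 28 of 70 genes for mitochondrial ribosomal proteins (40%). AZD1208 2 was the lowest of the 6 lines for 34 members and vehicle 1 for 20, together 88.5% of the members against 37.5% of all genes. Vehicle 3 was the highest line for 29 of 61 members, against 22.4% of all genes. Median centring left vehicle 1 at -0.26 and AZD1208 2 at -0.346, and quantile normalization left them at -0.268 and -0.352. AZD1208 3 was less stable, at -0.086 with 41 of 61 lower after centring and at 0.0504 with 19 of 61 lower after quantile normalization. The sign for AZD1208 1 turned too, to 0.00702 after centring. These lines were singled out after their values were seen, so the counts describe them and carry no test.

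The medians of the subunits and of the stalk lay below the parental value in both low lines. Which line had the lower median differed between them, but AZD1208 2 had the lower mean level in each. In AZD1208 2 the medians were -0.417 for 22 small-subunit genes, with 20 lower, and -0.266 for 32 large-subunit genes, with 27 lower. In vehicle 1 they were -0.226, with 21 of 22 lower, and -0.285, with 28 of 32 lower. By these medians AZD1208 2 was the lower line for the small subunit and vehicle 1, by little, for the large one. The mean levels in AZD1208 2 and vehicle 1 were 9.606 and 9.717 for the small subunit. They were 10.71 and 10.75 for the large subunit, and 10.72 and 10.8 for the stalk. The 3 stalk genes had medians of -0.473 in vehicle 1 and -0.268 in AZD1208 2, with 2 of 3 lower in each, and Rplp1 lay above the parental value in both (0.146 and 0.016). Splitting the members by brightness gave similar medians in AZD1208 2, -0.309 for 31 members at a mean level of 11 or more and -0.388 for 30 dimmer ones. The 10 members tested whose start had the TOP form had a median of -0.224 in vehicle 1 and -0.239 in AZD1208 2, and the 36 with a window but without that form -0.266 and -0.396.

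Across the 6 lines, the correlation of a member with the median of the other members had a median of 0.824 and exceeded 0.8 for 32 of 61 genes. These correlations describe 6 points that share the same arrays. Rps4x and Rpl23a, both at 0.992, followed the median most closely. Rps16 (-0.383), Rps23 (-0.016) and Rpl39 (-0.013) did not follow it. Of these 5 genes, Rps4x, Rpl23a and Rps16 were chosen after their values were seen.

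Rps4x, the X-linked small-subunit gene, was at 13.04, 13.03 and 13.05 on the parental arrays. It was at 12.81, 13.11 and 13.11 in vehicle lines 1 to 3, and at 13.05, 12.73 and 13.04 in AZD1208 lines 1 to 3. Rpl23a was at 12.30, 12.31 and 12.33 on the parental arrays. It was at 12.16, 12.55 and 12.64 in vehicle lines 1 to 3 and at 12.55, 11.93 and 12.52 in AZD1208 lines 1 to 3, so 1 line of each group lay below the parental arrays and the other 4 above them. Rps16 did not share this pattern. Its highest value was in AZD1208 2 (7.21) and its lowest in AZD1208 3 (6.54), while vehicle 1 (6.83) lay below the parental mean (7.04).

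The spread between lines was smallest for the brightest probe sets. The median SD over lines was 0.118 for the 13 members at 13 or more, the same as for all 80 genes in that range. It was 0.291 for 18 members between 11 and 13, against 0.217 for 1041 genes there, and 0.263 for 30 dimmer members, against 0.236 for 14405 genes. Rps6, whose protein is the S6 kinase substrate of the small subunit, had the smallest SD (0.0305, n = 6). It lay between 13.85 and 13.94 on all 9 arrays, whose highest values over all probe sets were 14.27 to 14.40. Rpl4 (SD 0.0575) and Rpl37 (SD 0.0586) varied little as well. Rpl17 (SD 0.600), Rps15 (SD 0.562) and Rpl9 (SD 0.464) varied most.

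**Figure D2:**
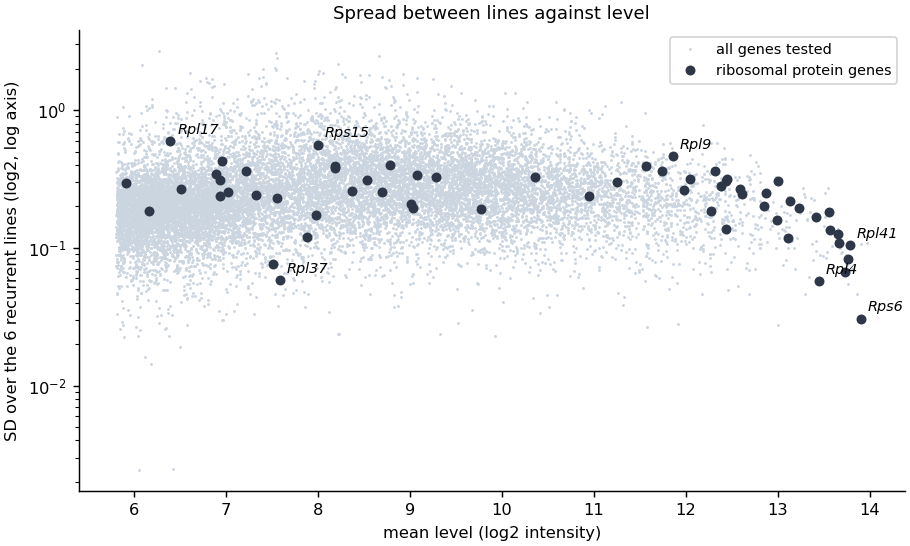
SD over the 6 recurrent lines (log axis) against mean log2 intensity, for the 61 ribosomal protein genes (dark points) and all 15526 genes tested (grey points). Member points fall towards the right, from a median SD of 0.291 between 11 and 13 to 0.118 at 13 or more, with Rps6 lowest.

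Rpl9, a large-subunit gene, was at 11.79, 11.90 and 12.06 in vehicle lines 1 to 3, and at 12.18, 10.90 and 11.99 in AZD1208 lines 1 to 3, against 12.05, 12.12 and 12.30 on the parental arrays. In this probe set AZD1208 2 stood apart from the other 5 lines. In the dimmer probe set of Rpl9 vehicle 1 was lowest (5.91), with AZD1208 2 at 6.03. Rps15, a small-subunit gene, was at 7.33, 7.84 and 8.61 in vehicle lines and 8.13, 7.23 and 8.39 in AZD1208 lines 1 to 3, against 8.60, 8.19 and 8.55 on the parental arrays. Its low values were again those of vehicle 1 and AZD1208 2. Rpl17 was at 5.52, 6.76 and 7.20 in vehicle lines and 6.60, 5.95 and 6.22 in AZD1208 lines, against 6.50, 6.46 and 6.62 on the parental arrays. It was lowest in vehicle 1, and the groups overlapped for all 3 genes.

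Treatment of the host mouse was compared first, AZD1208 lines with vehicle lines. No member passed an adjusted p of 0.05 (limma with Benjamini-Hochberg adjustment over 15526 genes; 0 of 61 members, and 0% of all genes), and 0 members had an unadjusted p under 0.05, against 0.155% of all genes higher and 0.367% lower. The median difference of AZD1208 from vehicle lines was -0.0639, against -0.02 for all genes, and 17 of 61 members were higher, against 45.2% of all genes. Of the 1121 genes tested at a mean level of 11 or more, 27.1% were higher (median -0.0665). Of the 31 members at that level, 32.3% were higher (median -0.0317), so bright members were not lower more often than bright genes in general. Leaving out AZD1208 2 raised the number of higher members to 39 of 61 (median 0.0425), and leaving out vehicle 3 raised it to 34 (0.0122). It fell to 8 of 61 without vehicle 1 (median -0.19), to 10 without AZD1208 1 and to 11 without AZD1208 3. The split between higher and lower members therefore turned with single lines.

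Rps27, a zinc-binding protein of the small subunit, was the only member whose groups did not overlap (1 of 61 lower, against 1.98% of all genes; 0 higher, against 1.41%). It was at 8.51, 8.49 and 9.08 in vehicle lines 1 to 3 and at 8.34, 8.19 and 8.35 in AZD1208 lines 1 to 3, with 8.65, 8.56 and 9.05 on the parental arrays. Vehicle 3 stood above the others, and the remaining vehicle lines lay closer to the AZD1208 lines. The difference was -0.40 (SE 0.20, 1.32-fold lower, limma adjusted p = 1). Its paralog Rps27l, a p53-responsive gene, was at 9.15, 9.05 and 9.18 in vehicle lines and 8.87, 8.63 and 9.09 in AZD1208 lines, a difference of -0.26 (SE 0.17, adjusted p = 1). AZD1208 3 lay among the vehicle lines.

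Rps14 of the small subunit differed by -0.32 (SE 0.17), with vehicle lines at 7.53, 7.598 and 7.84 and AZD1208 lines at 7.22, 7.27 and 7.54. Rpl6 differed by -0.42 (SE 0.24), from 7.88, 8.60 and 8.71 in vehicle lines and 8.15, 7.95 and 7.82 in AZD1208 lines, which overlapped. Rpl5, which with RPL11 and 5S rRNA binds MDM2, differed by -0.24 (SE 0.19), and Rps9 by -0.24 (SE 0.22). On the higher side were Rps4l (0.23, SE 0.22), Rps12 (0.19, SE 0.27), Rpl30 (0.16, SE 0.27), Rps23 (0.14, SE 0.17), Rps28 (0.12, SE 0.15) and Rpl3l (0.10, SE 0.18), of which 5, all but Rps4l, were smaller than their SE. The signs for Rps12 (-0.08) and Rpl30 (-0.14) turned without vehicle 1. That for Rpl3l turned without AZD1208 3 (-0.03) and with array quality weights (-0.03), and that for Rps28 with the mean of its probe sets (-0.03).

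**Figure D3:**
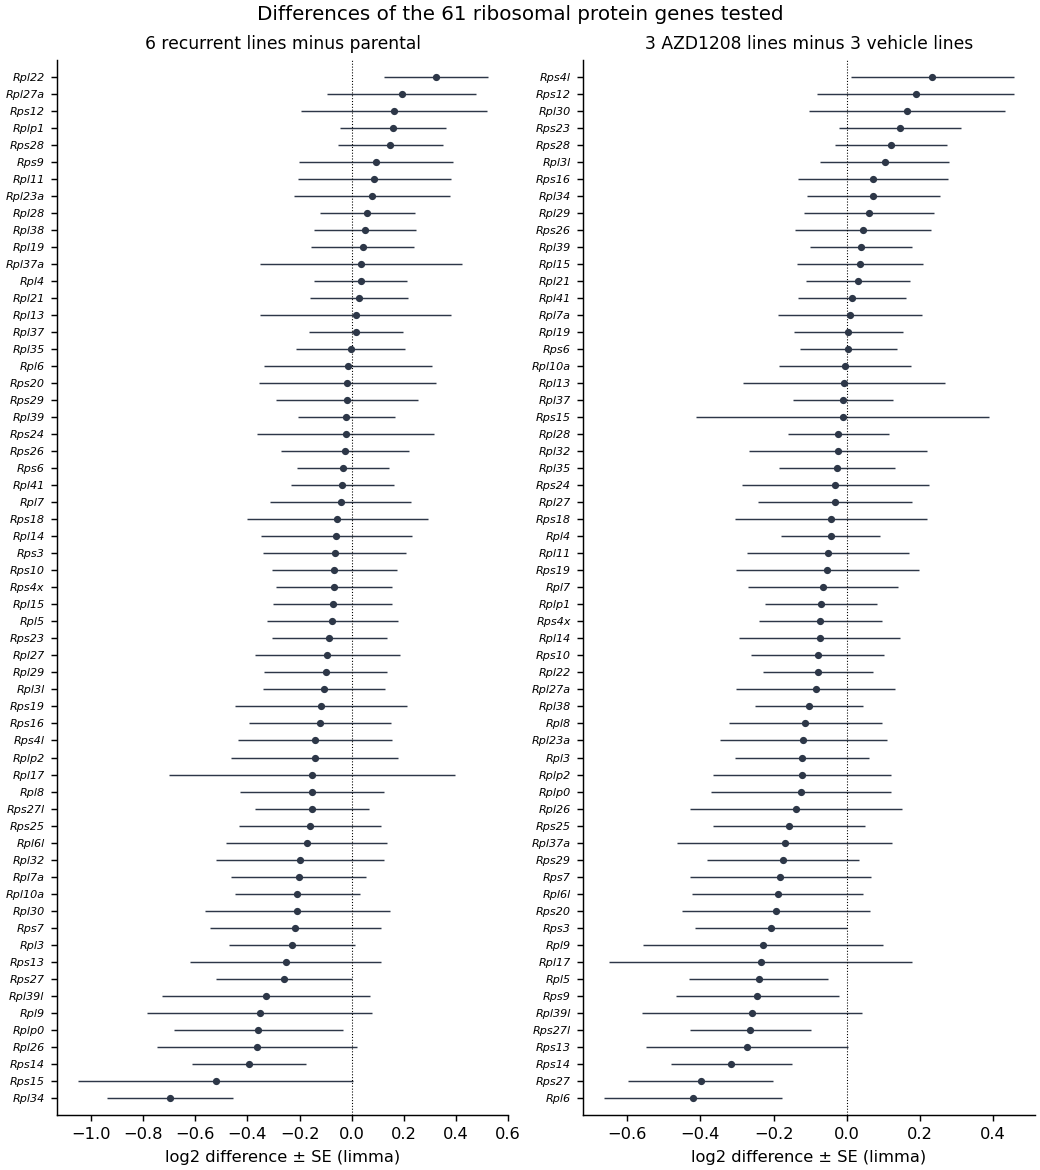
Log2 differences with SE (limma) of the 61 ribosomal protein genes, for the 6 recurrent lines minus the parental sample (left) and for 3 AZD1208 lines minus 3 vehicle lines (right), sorted in each panel. Values run from -0.70 (Rpl34) to 0.32 (Rpl22) on the left and from -0.42 (Rpl6) to 0.23 (Rps4l) on the right, and no member passed the adjusted threshold in either.

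Recurrent and parental cells differ both in DHT in the medium and in passage through a castrated host, and these cannot be told apart here. In limma 0 of 61 members passed the adjusted threshold, as did 0% of all genes. The median difference was -0.0676, against -0.0213 for all genes, and 16 of 61 members were higher, against 45.6%. Of the 1121 genes tested at a mean level of 11 or more, 40.8% were higher (median -0.064), and of the 31 members at that level 35.5% (median -0.0599). The number of higher members was 27 without vehicle 1 (median -0.0185), 24 without AZD1208 2 (-0.0243) and 28 with array quality weights (-0.0144). At an unadjusted p under 0.05 there was 1 member lower (0.747% of all genes) and 0 higher (2.02%). All 6 lines lay below the parental mean for 8 members (10.8% of all genes) and above it for 3 (11.8%). The share of members lower in all 6 lines was near its background, and that higher was below it.

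The gene with the smallest p was Rpl34, a large-subunit gene, at 9.31, 9.80 and 9.78 on the parental arrays. It was at 9.03, 8.71 and 8.94 in vehicle lines 1 to 3 and 9.01, 8.70 and 9.19 in AZD1208 lines 1 to 3, so all 6 lines lay below the lowest parental array. The difference was -0.70 (SE 0.24, 1.62-fold lower, limma adjusted p = 1), the technical SD between the parental arrays was 0.279, and vehicle 1 and AZD1208 2 were not both at its low end.

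Rps14 was at 7.84, 7.84 and 7.999 on the parental arrays and differed by -0.39 (SE 0.22), with vehicle 3 (7.84) at the level of the lowest parental arrays. Rps15 differed by -0.52 (SE 0.53), Rps27 by -0.26 (SE 0.26) and Rpl3, which lies near the peptidyl transferase centre, by -0.23 (SE 0.24). None of these passed (limma adjusted p = 1). Rpl3 was at 13.05, 13.07 and 12.996 on the parental arrays, at 12.58, 12.997 and 13.04 in vehicle lines, and at 12.72, 12.60 and 12.93 in AZD1208 lines. Its values in vehicle 2 and vehicle 3 lay within the range of the parental arrays, vehicle 2 at the low end. The dimmer probe sets of Rpl3 differed by 0.071 and -0.131, so its direction depended on the probe set.

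Rpl22, which binds RNA and restrains expression of its paralog Rpl22l1, was the member furthest above the parental value. It was at 7.70, 7.49 and 7.64 on the parental arrays, at 7.83, 7.93 and 8.15 in vehicle lines and at 7.91, 7.83 and 7.94 in AZD1208 lines. All 6 lines lay above all 3 parental arrays, by 0.32 on average (SE 0.20, 1.25-fold higher, limma adjusted p = 1), and vehicle 3 was highest. Rpl22l1, which the symbol rule leaves out, differed by 0.29 (SE 0.26), with 6.61 in the parental mean and 6.60 in AZD1208 1, the 1 line that did not lie above it. Rps28 differed by 0.15 (SE 0.20), Rpl27a by 0.19 (SE 0.29), Rps12 by 0.16 (SE 0.36) and Rpl28 by 0.06 (SE 0.18), each smaller than its SE.

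**Figure D4:**
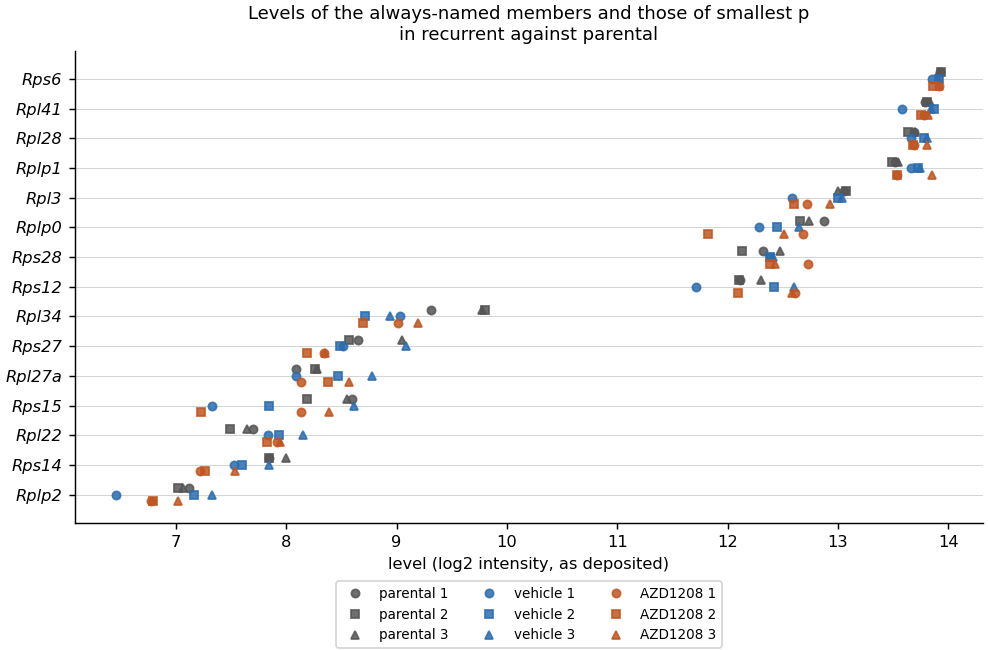
Log2 intensity on each of the 9 arrays for the members that are always named and the 6 with the smallest p in each direction of recurrent against parental. Colours give the group and symbols the replicate number. Rpl34 and Rpl22 are the genes whose 6 lines lie wholly to the left and wholly to the right of all 3 parental arrays, while Rps6 is nearly the same on all arrays; levels of different probe sets cannot be compared as amounts of RNA.

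The stalk, a base protein with paired acidic proteins that draws translation factors to the large subunit, had members on both sides of the parental value. Its base Rplp0 was at 12.88, 12.65 and 12.74 on the parental arrays. It was at 12.28, 12.45 and 12.65 in vehicle lines and at 12.68, 11.82 and 12.51 in AZD1208 lines, a difference of -0.36 (SE 0.33) from the parental value, with AZD1208 2 lowest. Rplp1 was at 13.52, 13.48 and 13.54 on the parental arrays, at 13.66, 13.73 and 13.74 in vehicle lines and at 13.53, 13.53 and 13.85 in AZD1208 lines, a difference of 0.16 (SE 0.20). Its dimmer probe set differed by -0.317, so the direction for Rplp1 depended on the probe set. Rplp2 differed by -0.14 (SE 0.32), with values from 6.46 in vehicle 1 to 7.33 in vehicle 3 around a parental mean of 7.06. Rpl41, which encodes the smallest ribosomal protein, differed by -0.04 (SE 0.20) and Rps6 by -0.03 (SE 0.18). For AZD1208 against vehicle lines these genes differed by -0.12 (Rplp0, SE 0.25), -0.07 (Rplp1, SE 0.15), -0.12 (Rplp2, SE 0.24), 0.015 (Rpl41, SE 0.15) and 0.004 (Rps6, SE 0.13), and the sign turned under some settings for each but Rplp1.

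Set separately against the parental sample, the 2 recurrent groups share that sample and their values are given side by side. In vehicle lines 22 of 61 members were higher (46.4% of all genes) with a median of -0.0354, and in AZD1208 lines 13 (46.6%) with a median of -0.097. Of the 1121 genes tested at a mean level of 11 or more, 45.8% were higher in vehicle lines and 36.7% in AZD1208 lines (medians -0.029 and -0.0996). Of the 31 members at that level, 41.9% and 29% were higher (medians -0.0354 and -0.0542). In limma 0 members passed in either (0% of all genes). At an unadjusted p under 0.05 there was 1 member lower in vehicle lines (0.386% of all genes) and 2 lower in AZD1208 lines (1.02%), with 0 higher in both (1.91% and 1.6%). All 3 vehicle lines were below the parental mean for 13 members (26.1% of all genes) and above it for 4 (25.4%). All 3 AZD1208 lines were below it for 18 members (21.9%) and above it for 4 (17%). Without vehicle 1, 43 members were higher in vehicle lines, and without vehicle 3, 14 were. Without AZD1208 2, 31 were higher in AZD1208 lines.

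Among the genes whose symbols end in l, Rpl10l, known from testis (3.73 to 4.08 over the 9 arrays), and Rpl32l (3.05 to 3.27) were the dimmest members and were not tested. Rpl3l, the striated-muscle form of Rpl3, lay between 5.99 and 6.46, and Rps4l between 5.66 and 6.46. The values carry no detection calls, so none is called absent. Rpl39l, a form known from male germ cells and some tumours, was at 7.38, 7.20 and 7.14 on the parental arrays, at 6.59, 7.52 and 7.03 in vehicle lines and at 6.92, 6.30 and 7.14 in AZD1208 lines. The low lines were again vehicle 1 and AZD1208 2, and the difference from parental was -0.33 (SE 0.40). Rpl39 itself was between 7.43 and 7.65 on all arrays. The probe set named Rpl6l was bright (11.88 to 12.64) and lowest in AZD1208 2, while that of Rpl6 was at 7.82 to 8.71. Ribosomal protein genes have many near-identical copies in the genome, and which copy a probe set reads was not tested, so the values of both, and of other members with such copies, are uncertain in this respect.

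How far probe sets of 1 gene went together was checked for the 22 genes with more than 1 distinct set of values. The 102 probe sets held 95 distinct sets, because 10 of them, 6 for Rps12, share their values with another. The signs of the difference from parental were alike within 12 of the 22 genes, and those of the AZD1208 difference within 15. Rps28 was at 0.149 in its brighter and -0.203 in its dimmer probe set, while Rplp0 was at -0.358 and -0.098. The pattern over lines did not rest on the probe set chosen. Over the 95 distinct sets the median was -0.319 in vehicle 1, with 88 lower, and -0.37 in AZD1208 2, with 86 lower, against -0.005 to 0.109 in the other lines.

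Genes that work with the cytosolic ribosome were set beside it, and in limma 0 members of these lists passed. Mitochondrial ribosomal proteins were lower than parental for 59 of 70 genes (median -0.19), against 54.4% of all genes lower. All 6 lines lay below the parental mean for 19 of them (27.1%, against 10.8% of all genes), with the smallest p for Mrps27 (-0.89), Mrpl49 (-0.55), Mrpl28 (-0.42) and Mrpl12 (-0.57). By line their medians were lowest in vehicle 1 (-0.409) and AZD1208 2 (-0.378) and highest in vehicle 3 (0.0597). The list of ribosome chaperones and assembly factors also held genes of ribosomal RNA synthesis, such as Polr1a and Polr1b. All 22 of its genes had lower values in recurrent lines (median -0.381, against 54.4% of all genes lower). All 6 lines lay below the parental mean for 11 of them (50%, against 10.8% of all genes). The smallest p were those of the uL3 chaperone Grwd1 (-1.002, SE 0.37), Pdcd2l (-0.57, SE 0.22), Aar2 (-0.46, SE 0.22) and the nucleolar factor Bysl (-0.57, SE 0.28). The medians of this list were -0.632 in vehicle 1 and -0.563 in AZD1208 2, but also -0.443 in AZD1208 3 and -0.318 in vehicle 2, lines in which the ribosomal protein genes lay near the parental value.

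Translation factors with TOP messages were lower for 10 of 16 genes (median -0.0341), among them Eef1d (-0.44, SE 0.32) and Eef1g (-0.41, SE 0.31), while Tpt1 was at 0.48 (SE 0.35). Their medians were -0.133 in vehicle 1 and -0.134 in AZD1208 2, and between -0.0148 and 0.0485 in the other lines. Of ribosomal proteins outside the symbol rule, 4 of 5 tested were lower, with medians of -0.281 in vehicle 1 and -0.467 in AZD1208 2. Rpsa was at -0.22 (SE 0.34) and Fau at -0.17 (SE 0.27). Small RNA host genes of the TOP type were at medians of -0.495 in vehicle 1 and -0.195 in AZD1208 2, and at -0.204 in AZD1208 3, over 4 genes, such as Snhg5 (-0.31, SE 0.44) and Snhg6 (0.45, SE 0.34).

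**Figure D5:**
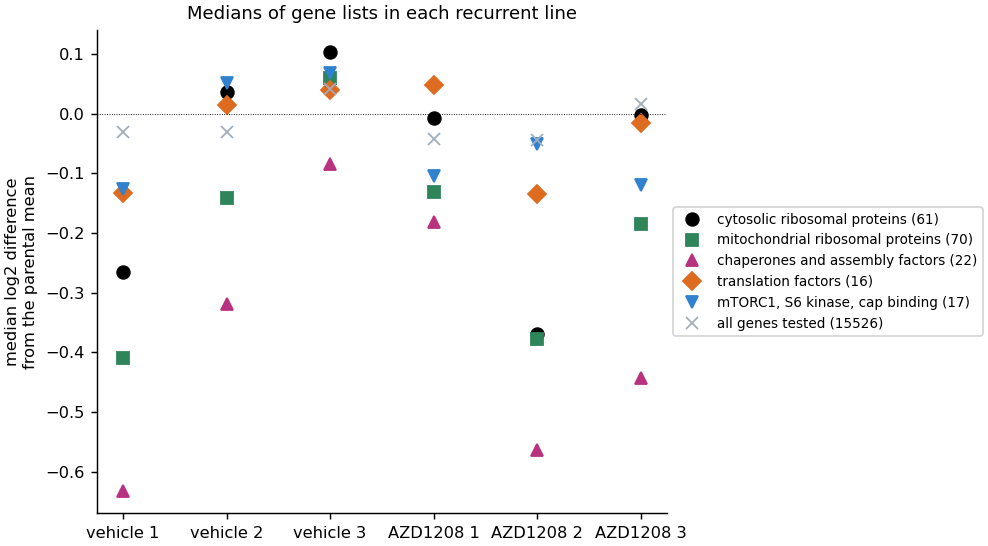
Median log2 difference from the parental mean in each of the 6 recurrent lines for the cytosolic ribosomal protein genes, companion lists and all genes tested (number of genes in brackets). Cytosolic and mitochondrial ribosomal proteins lie lowest in vehicle 1 and AZD1208 2. The list of chaperones and assembly factors, which also holds genes of ribosomal RNA synthesis, lies below 0 in all 6 lines.

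The mTORC1, S6 kinase and cap-binding list was lower for 10 of 17 genes (median -0.0231), and its medians in vehicle 1 (-0.126) and AZD1208 2 (-0.0504) did not stand apart. Pim3 differed by -0.76 (SE 0.23), Pim1 by -0.83 (SE 0.35), the S6 kinase Rps6kb2 by -0.45 (SE 0.22) and Tsc2 by 0.28 (SE 0.19). Myc was at 9.38 in vehicle 1 and 9.79 in AZD1208 2, against 9.78 in the parental mean and 9.43 to 10.34 in the other lines. Regulators of ribosomal protein promoters were higher for 5 of 9 genes (median 0.028). Among them Max (0.31, SE 0.26), Gabpb1 (0.58, SE 0.56), Yy1 (0.16, SE 0.18) and E2f1 (-0.24, SE 0.21) had the smallest p of that list, all above 0.05. Of Mdm2, Mdm4 and p53 target genes, 8 of 10 were lower in AZD1208 than in vehicle lines (median -0.264). Among all genes 54.8% were lower. Trp53 itself was not among the 10. The smallest unadjusted p of this list (limma) were those of Perp (-0.37), Cdkn1a (-0.52), Zmat3 (-0.36) and Ei24 (-0.33), all above 0.05. The medians of the 10 genes by line ran from -0.291 in AZD1208 3 to 0.219 in AZD1208 1. Those of vehicle 1 (0.208) and AZD1208 2 (0.134) were above the parental value.

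Markers of other cell types differed between lines as well. The mean level of 8 fibroblast markers was 8.71 in AZD1208 2 and 8.21 in vehicle 1, against 7.68 to 7.99 in the other lines and 7.16 in the parental mean. The median difference of the same markers from parental was highest in AZD1208 2 (0.486) but did not set vehicle 1 apart (0.0554, against 0.315 in vehicle 3 and 0.136 in AZD1208 3). Postn was at 12.72 in AZD1208 2, 10.53 in vehicle 2 and 9.30 in vehicle 1 (parental mean 5.36), Pdgfra was at 10.03 in vehicle 1 and 9.84 in AZD1208 2, and Pdgfrb was at 9.78 in AZD1208 2 against 6.49 to 7.22 elsewhere. The collagen genes Col1a1, Col1a2 and Col3a1 lay between 6.32 and 7.47 in all lines. Fbln2 was highest in vehicle 1 (9.36), then in vehicle 2 (8.80) and AZD1208 2 (8.18), and Twist2 was lowest in AZD1208 2 (8.38, parental mean 9.15). Dcn and Lum lay below the filter by their mean levels, but Dcn was at 6.68 in AZD1208 2, against 5.30 to 5.83 in the other lines (parental mean 5.37). The mean of 7 epithelial markers was 7.55 in vehicle 1 and 7.78 in AZD1208 2, against 7.85 to 8.10. Their median difference from parental was lowest in vehicle 1 (-0.578) but did not set AZD1208 2 apart (-0.166, against -0.158 in AZD1208 1 and -0.132 in AZD1208 3). In AZD1208 2 Krt8 was low (8.24, parental mean 9.19), while Cldn4 was high (8.28, parental mean 7.19). The mean levels of endothelial (5 genes, 6.198 to 6.53), lymphocyte (3 genes, 5.82 to 6.49), myeloid (4 genes, 6.26 to 6.68) and neuroendocrine markers (5 genes, 7.06 to 7.44) did not set both of these lines apart. Single markers did. Cd68 was at 8.08 in AZD1208 2 and 7.57 in vehicle 1, against 7.11 to 7.39 in the other lines. Ncam1 was at 10.58 and 10.31, against 9.84 to 9.95. Lyz2, below the filter, was at 6.42 and 7.10, but also at 6.97 in vehicle 2, against 4.74 to 5.18. Adgre1, Csf1r, Tyrobp, Chga, Chgb, Eno2 and Syp did not separate both lines. The part of any of these in the ribosomal protein values was not tested. In bulk RNA fewer cells of a type and less RNA per cell cannot be told apart.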

How the data were processed

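RNA of 9 arrays in 3 groups was measured. The authors deposited log2 intensities for 41345 probe sets. Oligo is named as their tool, per the submitters' processing notes. No source used here states its version, the background correction, the normalization or how probes were summarized. The deposited scale was kept. Precision is limited by the number of arrays.

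Gene names came from the platform annotation, in which 23521 probe sets had 1 symbol, 1814 several and 16010 none listed. For each of 22180 genes the probe set with the highest mean was used, and the 30% with the lowest mean (below 5.81) were left out. The 15526 genes were fitted in limma 3.58.1 (R 4.3.3, lmFit and eBayes) on group alone, leaving 4 residual degrees of freedom, with the parental arrays averaged to 1 sample that is assumed to vary like the lines. Benjamini-Hochberg adjustment covered every gene tested. The procedure was tested on simulated data. Promoter windows are from RefSeq; no genome build of the array is given, and coordinates belong to these windows only. Protein sequences were not used here.

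Named were Rplp0, Rplp1, Rplp2, Rps6, Rpl22, Rpl41, paralogs ending in l with their parent genes, the 6 members of smallest p in each direction of AZD1208 against vehicle and recurrent against parental, the 3 of largest and smallest SD, the 2 brightest and dimmest, and up to 4 genes of smallest p per companion list in either comparison. The members and lists were chosen with earlier results of these data known. Alternatives were quantile normalization, median centring, no filter, the mean of probe sets, array weights, separate parental arrays, the replicate number as a block and leaving out each line. Vehicle and AZD1208 lines share replicate numbers, but no label says that these pair them. Deviations from the group means correlated at 0.146, 0.118 and 0.532 for the lines numbered 1, 2 and 3. The correlation of vehicle 1 with AZD1208 2 was 0.264, higher than with AZD1208 1, so these values do not settle whether the numbers pair the lines. The main fit used group alone, and the numbers entered only as the block in that alternative.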

Additional observations from a re-analysis of the deposited data

Results flagged for a closer look

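In 6 of 33 named members, 1 of the 6 recurrent lines stood apart from the others by a gap above Dixon's 95% critical value for 6 samples. For a gene not picked by its values, chance flags about 1 in 20. Many of these members were named for their values on the same 6 arrays, so the count cannot show an excess over chance. Rpl9 was at 10.9 in AZD1208 2, below 11.8 to 12.2 in the other lines, in its brighter probe set only. Rpl30 was at 6.487 in vehicle 1, below 7.14 to 7.48. Rpl22 was at 8.155 in vehicle 3, above 7.83 to 7.94, and Rps27 was at 9.082 in the same line, above 8.19 to 8.51. Rps28 was at 12.73 in AZD1208 1, above 12.4. Rps4l was at 6.46 in AZD1208 3, above 5.66 to 5.92.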

How the results depend on the processing

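No member passed the adjusted threshold in any of the 4 comparisons under the alternatives run, and the smallest adjusted p among the named members (limma) was 0.0728, for Rpl34 against parental with the 3 technical parental arrays entered as separate samples. The number of members higher moved with single lines left out, from 8 to 39 of 61 for AZD1208 against vehicle, 14 to 43 for vehicle against parental, 12 to 31 for AZD1208 against parental and 12 to 27 for recurrent against parental. With array quality weights it was 23 for AZD1208 and 28 for recurrent lines against parental. With the replicate number as a block, it stayed at 17 and the median at -0.0639 for AZD1208 against vehicle, and the block changed no call. Signs turned for 13 of 33 named results. For AZD1208 against vehicle these were Rplp0 with array weights (0.0369) and without AZD1208 2 (0.133), Rplp2 (0.0487) and Rpl22 (0.0122) without vehicle 3, Rps6 with quantile normalization (-0.00239), centring (-0.022), without AZD1208 1 or 3 (-0.0049 each) and without vehicle 1 (-0.017), and Rpl41 with centring (-0.0115), array weights (-0.0365), without vehicle 1 (-0.0783) and without AZD1208 3 (-0.000886). Rps12 (-0.0771) and Rpl30 (-0.144) turned without vehicle 1, Rpl3l with array weights (-0.0282) and without AZD1208 3 (-0.0272), and Rps28 with the mean of probe sets (-0.0319). For recurrent against parental, Rplp1 (-0.0786) and Rps28 (-0.0271) turned with the mean of probe sets, Rps6 (0.0198) and Rpl41 (0.00598) with quantile normalization, and Rpl41 without vehicle 1 (0.0114). For these genes, leaving out 1 line at a time gave -0.296 to 0.133 for Rplp0, -0.385 to 0.0487 for Rplp2, -0.017 to 0.0221 for Rps6, -0.149 to 0.0122 for Rpl22, -0.0783 to 0.068 for Rpl41, -0.0771 to 0.366 for Rps12, -0.144 to 0.355 for Rpl30 and -0.0272 to 0.197 for Rpl3l (AZD1208 against vehicle), and -0.0618 to 0.0114 for Rpl41 against parental. The causes were not tested.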
